A study of Saccharomyces cerevisiae with 9 samples.

Results

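Autophagy is the process by which a cell encloses part of its own contents in a new membrane, the autophagosome, and delivers them to the vacuole for breakdown. In budding yeast it is set in motion by the Atg1 kinase complex, which is held in check by the TOR complex TORC1 when nutrients are plentiful. Membrane is then supplied by Atg9 vesicles and a phosphatidylinositol 3-kinase, expanded by lipid transfer and by a pair of ubiquitin-like conjugation systems, and aimed at particular cargo by receptors. The 32 autophagy genes described here are ATG genes of the core, selective and Cvt (cytoplasm-to-vacuole targeting) pathways. They were chosen by systematic name from 6942 features of the array table. No measured value entered that rule, but earlier results of these data were known when the genes were chosen. All 32 were in the table, and all 32 carry an ATG symbol in the RefSeq R64 annotation.

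Each of 9 tiled 2-colour arrays set cDNA of yeast treated with 0.7 M NaCl for 30 min against cDNA of the same strain before stress, in rich YPD medium at 30°C. There were 2 arrays of ckb12 and 7 arrays of wild type (WT), both of the background of BY4741, a common laboratory strain. The ckb12 strain (1 strain, obtained from another laboratory) lacks CKB1 and CKB2, which encode the regulatory subunits of the protein kinase CK2. Set letters in the labels tie ckb12 replicate 1 to WT replicate 8 (set A) and ckb12 replicate 2 to WT replicate 9 (set B). WT replicate 10 belongs to set C, 11 to set D and 12 to set E, while replicates 1 and 2 of WT have no letter. Where the values of single arrays are given, they follow the order of ckb12 replicates 1 and 2 and of WT replicates 1, 2, 8, 9, 10, 11 and 12.

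All values are log2 ratios of treated over unstressed signal, so 1 stands for a doubling, taken against the middle of all features on the same array, which is close to 0. The arrays hold no transcript level, and in bulk cultures a change in all cells, a larger change in some of them and a change in total mRNA per cell cannot be told apart. The study's methods speak of biological replicates, but the labels do not tie single arrays to cultures, so p-values measure the spread between arrays. Of the 32 genes, 31 had a value on all 9 arrays, and ATG39 lacked WT replicate 2. WT replicate 12, whose label in 1 field adds the word mutant to the WT name, gave the lowest WT value of 11 of these 31 genes, more than any other WT array. The deleted genes had ratios of 0.97 and 0.44 (CKB1) and 0.82 and 0.71 (CKB2) in ckb12, all above the WT values, which a ratio within a strain cannot turn into a test of the deletion.

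Salt raised most of the autophagy genes in both strains. In ckb12, 25 of the 31 testable genes rose and 1 fell (limma, group mean against 0, Benjamini-Hochberg adjusted p under 0.05 over 6129 features), where 27.4% of all features rose and 35.7% fell. That fit lends the 2 ckb12 arrays the spread of the WT arrays. In WT, 27 of the 31 genes rose and 1 fell in limma over 7 arrays, against 36.5% and 40.6% of all features. A rise of at least 1 was called in WT for 17 of the 31 genes, against 12.6% of all features. The median change of the 31 genes was 1.16 in ckb12 and 1.29 in WT, whereas that of all features was -0.088 in ckb12 and -0.042 in WT. On every WT array 26 of the 32 genes were above 0 and 17 were above 1, and 1 gene (ATG5) was below 0 on every WT array. No gene was called in ckb12 alone, and ATG13 and ATG23 were called in WT alone, which is no test of a difference between strains. Without WT replicate 12 the calls numbered 27 in ckb12 and 30 in WT, and on the 5 WT arrays with a set letter they numbered 26.

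**Figure D1:**
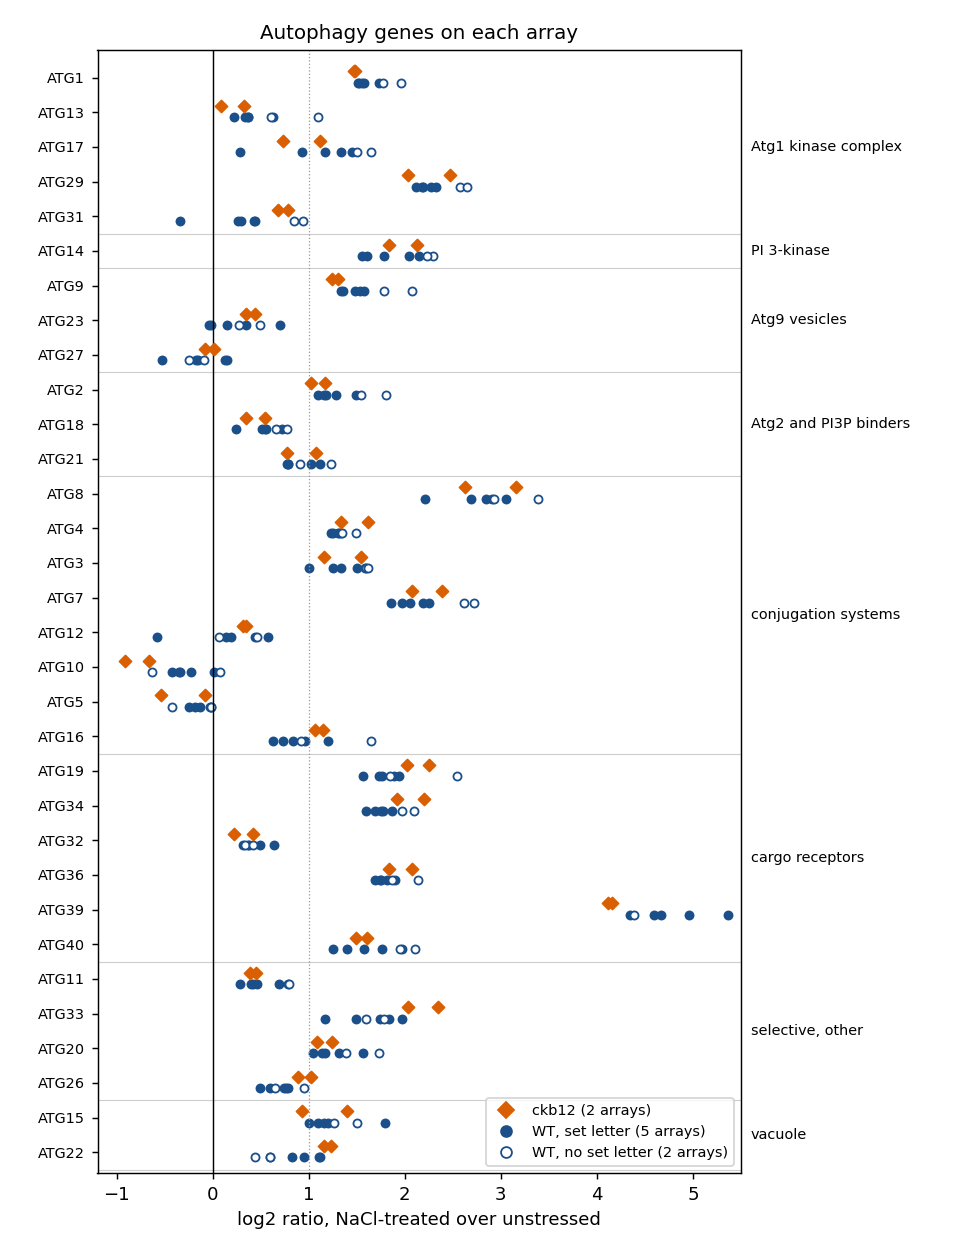
Log2 ratio of NaCl-treated over unstressed signal (x axis) for the 32 autophagy genes (rows, grouped by role). Diamonds are the 2 ckb12 arrays, filled circles the 5 WT arrays with a set letter and open circles the 2 WT arrays without one, the dotted line marks 1, and ATG39 lies apart from all others, between 4.12 and 5.36.

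The genes of the Atg1 kinase complex, which starts autophagosome formation, all rose in WT (5 of 5), but by very different amounts. ATG1 (YGL180W), which encodes the kinase, had ratios of 1.47 and 1.48 in ckb12, against 1.78, 1.96, 1.58, 1.56, 1.52, 1.51 and 1.73 in WT. The ckb12 values lay just below the WT range, and the WT mean was 1.66 ± 0.17 (SD, n = 7; limma with Benjamini-Hochberg, adjusted p = 9.68e-09). ATG29 (YPL166W), which encodes a subunit of the Atg17-Atg29-Atg31 scaffold, had ratios of 2.03 and 2.47 in ckb12, against 2.57, 2.65, 2.12, 2.19, 2.32, 2.27 and 2.17 in WT. Its WT mean of 2.33 ± 0.20 (SD, n = 7; adjusted p = 1.93e-09, limma with Benjamini-Hochberg) is a 5.02-fold rise. The scaffold's central subunit gene, ATG17 (YLR423C), had ratios of 0.74 and 1.12 in ckb12, against 1.65, 1.50, 0.93, 1.17, 1.34, 1.45 and 0.28 in WT. With an SD of 0.46 around a WT mean of 1.19, it was the most variable of the 32 genes in WT, and WT replicate 12 gave the value farthest from the rest. ATG31 (YDR022C), the gene for the third scaffold subunit, had ratios of 0.78 and 0.68 in ckb12, against 0.84, 0.94, 0.26, 0.29, 0.44, 0.43 and -0.34 in WT. It too was lowest on WT replicate 12, where it alone of the 5 genes was below 0, and its WT mean was 0.41 ± 0.42 (SD, n = 7; adjusted p = 0.0179, limma with Benjamini-Hochberg). Its call was lost without WT replicate 1 or 2 (adjusted p = 0.0535 and 0.0505, limma with Benjamini-Hochberg) and on the 5 WT arrays with a set letter (adjusted p = 0.144). ATG13 (YPR185W), whose product links the kinase to the scaffold and is a target of TORC1, averaged 0.52 ± 0.30 in WT (SD, n = 7). Thus within the scaffold of Atg17, Atg29 and Atg31, the lowest WT value of ATG29, 2.12, lay above the highest of both ATG17 and ATG31, 1.65 and 0.94.

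ATG14 (YBR128C), whose product sends the phosphatidylinositol 3-kinase Vps34 to the site of autophagosome formation, had ratios of 1.84 and 2.13 in ckb12, against 2.29, 2.24, 1.56, 1.78, 2.04, 2.14 and 1.60 in WT. The 9 values overlapped between strains, and the WT mean was 1.95 ± 0.30 (SD, n = 7; adjusted p = 3.99e-08, limma with Benjamini-Hochberg). Genes for Vps34 itself, its other partners and a sorting nexin had smaller values. Of 6 genes for Vps34, its partners and the sorting nexin Snx4, 5 rose in WT and none by 1 or more, with a median of 0.49.

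Among the genes of the Atg9 vesicles, ATG9 (YDL149W) had a larger change than the genes for its trafficking partners. ATG9 encodes the membrane protein of these vesicles, a lipid scramblase, and had ratios of 1.30 and 1.24 in ckb12, against 1.79, 2.08, 1.36, 1.53, 1.49, 1.57 and 1.34 in WT. Both ckb12 values were below all WT values, and the WT mean was 1.59 ± 0.26 (SD, n = 7; adjusted p = 8.32e-08, limma with Benjamini-Hochberg). ATG23 (YLR431C), the gene for a peripheral partner of Atg9, averaged 0.27 ± 0.27 in WT (SD, n = 7; adjusted p = 0.0239, limma with Benjamini-Hochberg), a call lost on the 5 arrays with a set letter (adjusted p = 0.118) and without WT replicate 1, 8 or 11 (0.0678, 0.0570 and 0.0653). ATG27 (YJL178C), the gene for a membrane protein that travels with Atg9, averaged -0.13 ± 0.23 (SD, n = 7) and was not called (adjusted p = 0.182, limma with Benjamini-Hochberg). ATG2 (YNL242W), the gene for the lipid transfer protein that fills the growing membrane, averaged 1.36 ± 0.26 in WT, and the genes for a pair of related proteins that bind phosphatidylinositol 3-phosphate, ATG21 (YPL100W) and ATG18 (YFR021W), averaged 0.95 ± 0.18 and 0.57 ± 0.17 (SD, n = 7 each). All 3 rose.

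Among the conjugation genes, those of the branch that processes and attaches Atg8 itself (ATG8, ATG4, ATG7 and ATG3) rose. Atg8, the ubiquitin-like protein that is joined to phosphatidylethanolamine on the autophagosome, is cut by Atg4, activated by Atg7 and transferred by Atg3. ATG8 (YBL078C) had ratios of 2.62 and 3.15 in ckb12, against 3.38, 2.93, 2.91, 2.69, 3.06, 2.85 and 2.21 in WT. Its WT mean was 2.86 ± 0.36 (SD, n = 7; adjusted p = 6.22e-09, limma with Benjamini-Hochberg), a 7.27-fold rise, and the ckb12 values lay inside the WT range. ATG7 (YHR171W) had ratios of 2.08 and 2.39 in ckb12, against 2.72, 2.62, 1.86, 1.97, 2.05, 2.19 and 2.25 in WT. WT replicates 1 and 2 were the highest of the 9 arrays, and the WT mean was 2.24 ± 0.32 (SD, n = 7; adjusted p = 2.08e-08, limma with Benjamini-Hochberg). ATG3 (YNR007C) averaged 1.41 ± 0.23 and ATG4 (YNL223W) 1.32 ± 0.084 in WT (SD, n = 7 each), and ATG4 had the smallest SD of the 32 genes.

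The other branch joins Atg12 to Atg5 through Atg7 and Atg10, and most of its genes had ratios near or below 0. ATG12 (YBR217W) averaged 0.19 ± 0.39 and ATG5 (YPL149W) -0.15 ± 0.15 in WT (SD, n = 7 each), and neither was called (adjusted p = 0.201 and 0.0727, limma with Benjamini-Hochberg). Without WT replicate 12, both were called, with means of 0.31 and -0.17 (adjusted p = 0.00627 and 0.0483). ATG10 (YLL042C) had ratios of -0.92 and -0.66 in ckb12, against 0.075, -0.63, -0.35, 0.012, -0.22, -0.35 and -0.42 in WT. It was the only one of the 31 genes called lower in WT, at -0.27 ± 0.25 (SD, n = 7; adjusted p = 0.0195, limma with Benjamini-Hochberg), although WT replicates 1 and 9 were slightly above 0, and the call was lost without WT replicate 2 or 8 (adjusted p = 0.0509 and 0.0505). ATG16 (YMR159C), whose product binds the Atg12-Atg5 conjugate, rose by 0.99 ± 0.34 in WT (SD, n = 7). Over all arrays, ATG8, ATG4, ATG3 and ATG7 ranged from 1.15 to 3.15 in ckb12 and from 1.01 to 3.38 in WT. ATG12, ATG10 and ATG5 ranged from -0.92 to 0.34 in ckb12 and from -0.63 to 0.57 in WT, so that these sets of 4 and 3 genes did not overlap in either strain. The sets were noticed in the values and carry no test, and they do not follow the branches exactly. ATG7 serves both branches, and ATG16, which belongs with ATG12 and ATG5, had ratios of 1.15 and 1.07 in ckb12 and of 0.63 to 1.65 in WT, which overlapped those of the first set.

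Cargo receptors held the largest response. ATG39 (YLR312C), which encodes the receptor for autophagy of the nuclear envelope, had ratios of 4.12 and 4.16 in ckb12, against 4.39, 4.60, 4.96, 4.66, 4.34 and 5.36 in WT, where WT replicate 2 is missing. Its lowest value on any array, 4.12, exceeded the highest value of every other autophagy gene, and the WT mean of 4.72 ± 0.38 (SD, n = 6) is a 26.3-fold rise. It had no call in the fit of complete features. With missing values kept it rose in both strains (adjusted p = 5.62e-07 in ckb12 and 2.23e-08 in WT, limma with Benjamini-Hochberg). ATG40 (YOR152C), the gene for a receptor of the endoplasmic reticulum, had ratios of 1.60 and 1.49 in ckb12, against 2.11, 1.95, 1.58, 1.76, 1.39, 1.26 and 1.97 in WT. The WT mean was 1.72 ± 0.32 (SD, n = 7; adjusted p = 1.41e-07, limma with Benjamini-Hochberg). ATG36 (YJL185C), the gene for the peroxisome receptor, had ratios of 2.07 and 1.83 in ckb12, against 2.14, 1.87, 1.74, 1.69, 1.81, 1.75 and 1.89 in WT. It was among the steadiest of the strongly raised genes, with a WT mean of 1.84 ± 0.15 (SD, n = 7; adjusted p = 3.31e-09, limma with Benjamini-Hochberg). ATG32 (YIL146C), the gene for the mitochondrial receptor, was the lowest of the 6 receptor genes at 0.42 ± 0.11 in WT (SD, n = 7; adjusted p = 1.18e-04, limma with Benjamini-Hochberg).

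The related genes ATG19 (YOL082W) and ATG34 (YOL083W) encode receptors for hydrolases delivered by the Cvt pathway and by autophagy, and lie next to each other on chromosome XV in the same orientation. ATG19 had ratios of 2.03 and 2.25 in ckb12, against 1.85, 2.54, 1.76, 1.73, 1.94, 1.88 and 1.56 in WT. ATG34 had ratios of 1.92 and 2.20 in ckb12, against 2.09, 1.97, 1.87, 1.75, 1.77, 1.69 and 1.60 in WT. Their WT means were nearly the same, 1.89 ± 0.31 and 1.82 ± 0.17 (SD, n = 7 each; adjusted p = 5.71e-08 and 5.13e-09, limma with Benjamini-Hochberg), but WT replicate 2 stood high for ATG19 only. Genes for their cargo also rose in WT, namely AMS1 (YGL156W), the vacuolar alpha-mannosidase, by 2.32 ± 0.34, and APE1 (YKL103C), an aminopeptidase, by 2.04 ± 0.37 (SD, n = 7 each).

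The remaining genes that were grouped here under selective autophagy all rose (4 of 4). ATG33 (YLR356W), which encodes a mitochondrial outer membrane protein that takes part in mitophagy, had ratios of 2.34 and 2.03 in ckb12, against 1.60, 1.79, 1.74, 1.83, 1.49, 1.16 and 1.97 in WT. Both ckb12 values were above the whole WT range, and the WT mean was 1.65 ± 0.27 (SD, n = 7; adjusted p = 6.80e-08, limma with Benjamini-Hochberg). ATG20 (YDL113C), the gene for a sorting nexin, averaged 1.33 ± 0.25, ATG26 (YLR189C), that for a sterol glucosyltransferase, 0.71 ± 0.15, and ATG11 (YPR049C), that for the scaffold of selective autophagy, 0.55 ± 0.20 in WT (SD, n = 7 each). Of the genes that act in the vacuole, ATG15 (YCR068W), encoding the lipase that opens autophagic bodies, averaged 1.29 ± 0.27, and ATG22 (YCL038C), encoding an exporter of amino acids, 0.80 ± 0.27 in WT (SD, n = 7 each), and both rose.

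**Figure D2:**
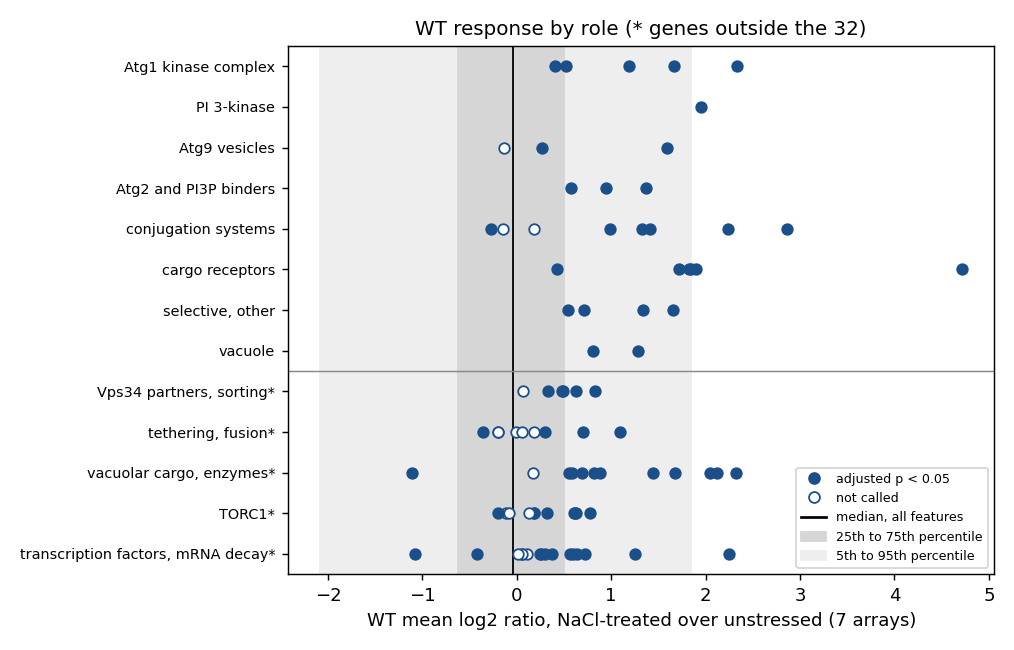
WT mean log2 ratio (x axis, 7 arrays, 6 for ATG39) of each autophagy gene by role, above the line, and of 54 other genes of the pathway, below it. Filled points were called, open points were not, and the shading spans the 25th to 75th and the 5th to 95th percentile of all features, whose median was -0.042, while that of the 31 tested autophagy genes was 1.29.

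Of the 17 genes not given by array, 12 rose in ckb12 and 5 were not called. In ckb12, ATG4 averaged 1.48 ± 0.20, ATG3 1.35 ± 0.28, ATG20 1.16 ± 0.12, ATG15 1.16 ± 0.33, ATG2 1.10 ± 0.10, ATG16 1.11 ± 0.055 and ATG22 1.19 ± 0.052, all with rises that were called (SD, n = 2 each). Smaller called rises were those of ATG26 at 0.95 ± 0.10, ATG21 at 0.93 ± 0.21, ATG18 at 0.44 ± 0.14, ATG11 at 0.42 ± 0.049 and ATG32 at 0.32 ± 0.14 (SD, n = 2 each). The genes not called in ckb12 were ATG23 at 0.39 ± 0.072, ATG12 at 0.33 ± 0.017, ATG13 at 0.21 ± 0.17, ATG27 at -0.038 ± 0.067 and ATG5 at -0.31 ± 0.32 (SD, n = 2 each). These 5 genes were also among the 8 lowest means in WT. Without 1 of the ckb12 arrays, between 22 and 23 of the 31 genes were called in place of 26. Set against all complete features, the WT mean of ATG39 was at the 99.3rd percentile, that of ATG8 at the 97.7th and that of ATG29 at the 96.7th, while ATG10 was at the 38.8th. The SD over WT arrays ran from 0.084 to 0.46 among the 32 genes, with a median of 0.26, against 0.23 for all features.

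Beyond the ATG genes, 54 other genes of the pathway, from lists written with earlier results of these data known, had a lower median. In WT 35 rose, 5 fell and 14 were not called, against 36.5% of all features that rose and 40.6% that fell, and the median was 0.35. The vacuolar enzymes and cargo had the highest median of the 5 lists (0.85, where 10 of 12 rose and 1 fell). Besides AMS1 and APE1, they included PRB1 (YEL060C), vacuolar proteinase B, at 2.12 ± 0.34, and ATG42 (YBR139W), a vacuolar carboxypeptidase, at 1.67 ± 0.32 (SD, n = 7 each). Genes for membrane tethering and fusion had a share of rises near that of all features (3 of 9 rose, 1 fell), with only the SNARE gene VTI1 (YMR197C) past 1, at 1.09 ± 0.35 (SD, n = 7). Of 11 genes of TORC1 and its regulators, 7 rose and 1 fell, none by 1 or more. Among 16 genes for transcription factors and mRNA decay factors, several of which are known to act on ATG genes, 10 rose and 2 fell. GIS1 (YDR096W), a zinc-finger regulator of genes used as glucose runs out, rose by 2.25 ± 0.41. MSN2 (YMR037C), a general stress activator, rose by 1.26 ± 0.35, while GCN4 (YEL009C), the activator of amino acid synthesis genes, fell, with a mean of -1.08 ± 0.17 (SD, n = 7 each).

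Since the arrays are tiled and yeast genes lie close together, the genes on either side of each autophagy gene in the R64 annotation were read as well. Of 60 testable neighbours that are not themselves among the 32 genes, 22 rose in WT and 31 fell, with a median of -0.21. Of all features, 36.5% rose and 40.6% fell. Beside the 17 genes called with a rise of at least 1 and ATG39, 12 of 32 testable neighbours rose and 15 fell. Of these neighbours 2 rose by 1 or more, against 12.6% of all features. ATG7 stood beside NMD3 at -2.26 ± 0.11, and ATG9 between RPC53 at -1.72 ± 0.28 and NOP14 at -2.50 ± 0.24, all 3 with roles in making ribosomes or RNA polymerase (SD, n = 7 each). ATG8 lay between NUP170 at -0.62 ± 0.13 and ILS1 at -1.22 ± 0.20, and ATG39 between CDC25 at -0.093 ± 0.17 and MRPL15 at -0.0018 ± 0.28 (SD, n = 7 each). In these 4 cases the autophagy gene rose between neighbours that fell or were not called. In the opposite direction, ATG34 followed PHM7, which had risen by 7.62 ± 0.72, and ATG13 followed GDB1, at 4.04 ± 0.28 (SD, n = 7 each). ATG1 was flanked by 2 genes that also rose, GTS1 at 0.97 ± 0.16 and TOS3 at 1.39 ± 0.20 (SD, n = 7 each). In all, 7 of the 60 testable neighbours rose by 1 or more. Besides PHM7, GDB1 and TOS3, they were SDH2 beside ATG10 at 1.75 ± 0.33 and CVM1 beside ATG16 at 1.41 ± 0.24. The others were GID7 beside ATG22 at 1.22 ± 0.27 and ROG3 beside ATG18 at 1.02 ± 0.26 (SD, n = 7 each). ATG29 overlaps the end of SET6, which faces it and had a WT mean of -0.49 ± 0.65 (SD, n = 6). How far probes of adjacent genes share signal was not tested.

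**Figure D3:**
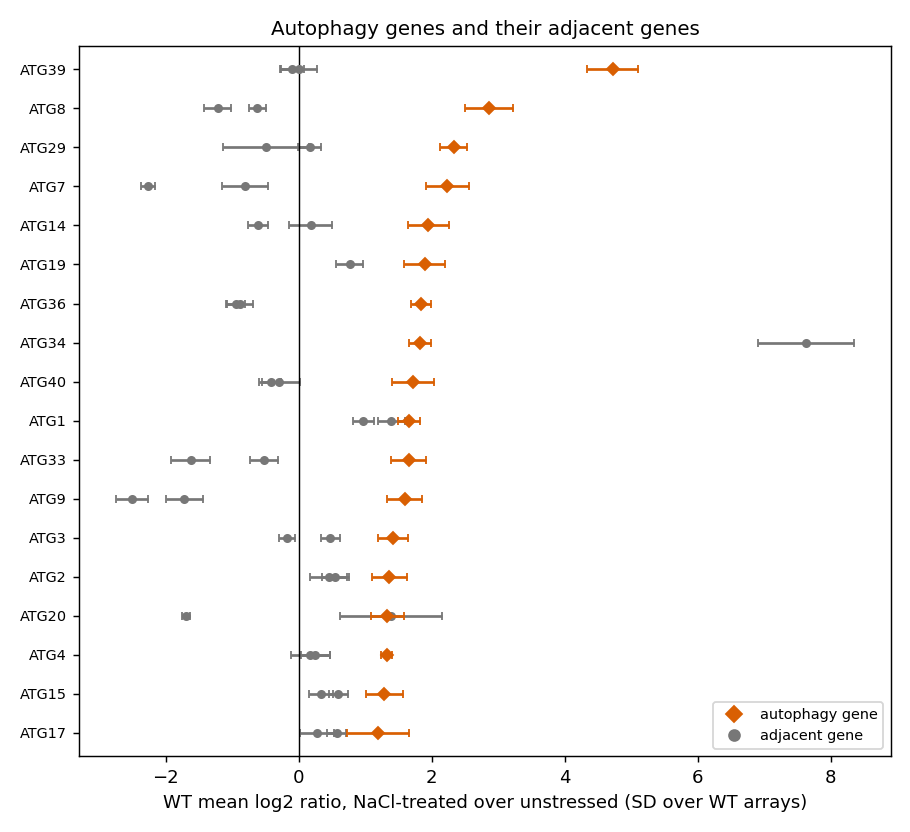
WT mean log2 ratio with its SD over the WT arrays (x axis) for the 18 autophagy genes with a mean of at least 1 (diamonds, rows by mean) and for their adjacent genes that are not among the 32 (circles). Most adjacent genes lie left of the autophagy gene, PHM7 beside ATG34 at 7.62 being far to the right.

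Whether the loss of CKB1 and CKB2 changed the response was asked within sets A and B, each with 1 ckb12 and 1 WT array, with the set as a block. None of the 32 autophagy genes was called (limma, Benjamini-Hochberg over 6600 features, of which 0.0152% were called), and 3 had an unadjusted p under 0.05, namely ATG39, ATG10 and ATG31, where 16.6% of all features did. The median difference, ckb12 minus WT, was 0.068 for the 32 genes and -0.047 for all features. In both sets 12 genes were higher and 7 were lower in ckb12, and 13 had opposite signs, while 63.7% of all features had the same sign in both. Neither share of the genes exceeded that of all features. Against all 7 WT arrays with no block, none of 31 genes was called, where 1.14% of features were, and 2 (ATG10 and ATG33) had an unadjusted p under 0.05, where 15.3% of features did. The median difference over these 31 genes was -0.020, of the opposite sign to that within sets. Across the 31 genes, which are not independent of each other, a ckb12 array correlated with a WT array at r between 0.86 and 0.97 (14 pairs), and WT arrays with each other at r between 0.81 and 0.98 (21 pairs).

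ATG39 had the largest difference, with -0.48 within set A and -0.80 within B. The mean was -0.64 (95% confidence interval -1.06 to -0.23; adjusted p = 0.171, limma with Benjamini-Hochberg), and both ckb12 values, 4.12 and 4.16, lay below the 6 WT values, the lowest of which was 4.34. For ATG10 the difference was -0.57 within set A and -0.68 within B. The mean was -0.62 (95% confidence interval -0.999 to -0.247; adjusted p = 0.159, limma with Benjamini-Hochberg), and both ckb12 values were below all 7 WT values. These 2 genes were the only ones of the 32 to be called when the fit was limited to ORF-style features (adjusted p = 0.0285 and 0.0283). That fit also called far more of all features than the main fit did, so the calls alone do not set these genes apart. ATG31 was higher in ckb12 by 0.45 (95% confidence interval 0.071 to 0.83; adjusted p = 0.246, limma with Benjamini-Hochberg), with values inside the WT range. ATG33 was higher by 0.40 (95% confidence interval -0.039 to 0.84; adjusted p = 0.336, limma with Benjamini-Hochberg).

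The ckb12 arrays lay outside the WT range for 5 of the 31 complete genes, ATG33 and ATG22 above it and ATG1, ATG9 and ATG10 below it. That share, 16.1%, was near the 17.4% of all features. For ATG1, ATG9 and ATG22 the 95% interval of the paired difference spanned 0, with -0.090 for ATG1 (-0.46 to 0.28), -0.17 for ATG9 (-0.57 to 0.22) and 0.16 for ATG22 (-0.24 to 0.55). The difference of ATG8 was -0.29 within set A and 0.46 within B and averaged 0.088 (-0.49 to 0.66), so its direction was not settled. Of the 54 other pathway genes, 1 was called against all 7 WT arrays, PHO8 (YDR481C), the vacuolar alkaline phosphatase, which is singled out here after its values were seen. Its ratios were 0.28 and 0.24 in ckb12, while in WT they ran from -1.32 to -0.82. The paired difference of 1.24 did not pass (adjusted p = 0.105), and that against all WT arrays, 1.37, did (adjusted p = 0.0113; limma with Benjamini-Hochberg). Within sets it also passed with ORF-style features only and with robust eBayes (adjusted p = 5.88e-04 and 0.0184). Both of these settings also called far more of all features than the main fit within sets did.

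**Figure D4:**
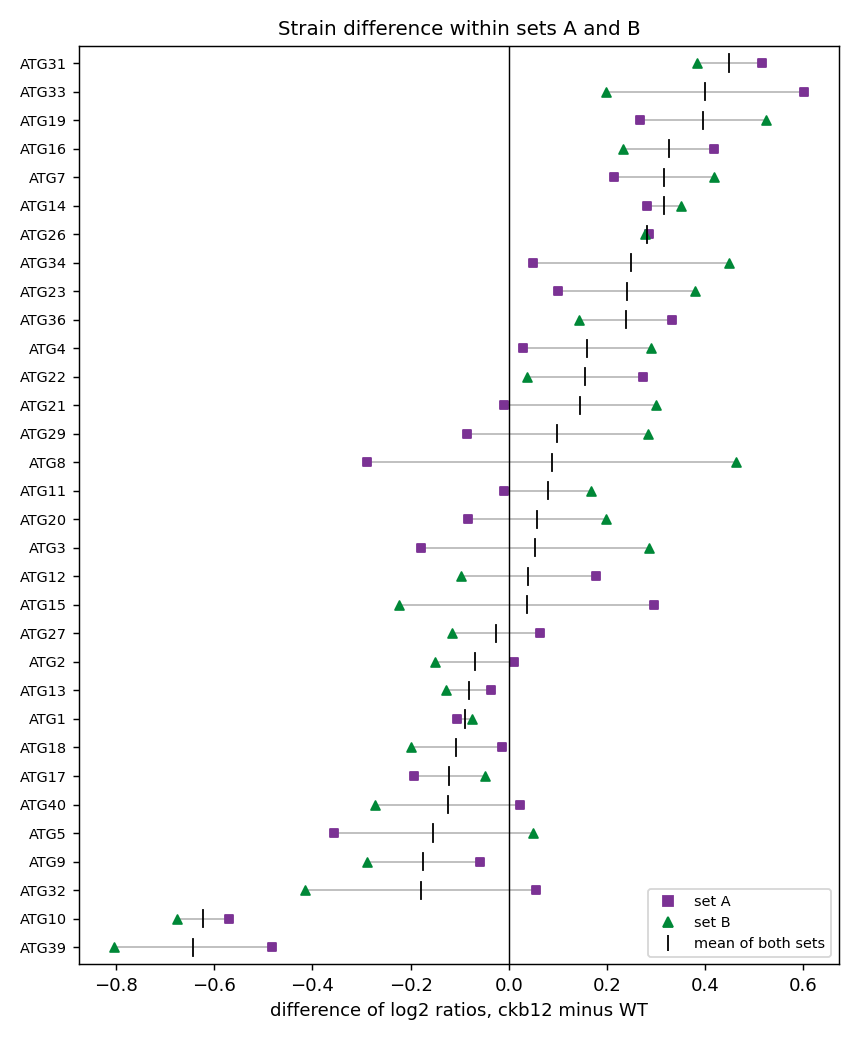
Difference of log2 ratios, ckb12 minus WT (x axis), for each autophagy gene in set A (squares) and set B (triangles), with the mean of both sets as a bar and genes ordered by it. ATG10 and ATG39 lie farthest to the left, at -0.62 and -0.64, and no gene was called.

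No batch other than the set letter is named in the labels, and many of the autophagy genes had lower ratios on lettered than on unlettered WT arrays. On the 5 WT arrays with a letter, all values lay below both unlabelled arrays for 12 of 31 genes, or 38.7%, against 13.2% of all features, and for no gene did they all lie above. The median over the genes ran from 1.14 to 1.16 on the ckb12 arrays, from 1.12 to 1.26 on the WT arrays with a letter and from 1.44 to 1.50 on those without. Genes of the Atg1 complex (ATG1, ATG17, ATG29 and ATG31), ATG14, ATG9, ATG2, ATG7, ATG3, ATG4, ATG34 and ATG11 made up the 12. ATG7 had the lowest p, with a difference, set-labelled minus unlabelled, of -0.60 (2.06 ± 0.16, SD, n = 5, against 2.67 ± 0.069, SD, n = 2). It was -0.67 for ATG31, -0.48 for ATG9 and -0.39 for ATG29. No autophagy gene passed the test for the set letter (lowest adjusted p = 0.146, limma with Benjamini-Hochberg, where 0.457% of features were called), and 9 had an unadjusted p under 0.05, or 1 without WT replicate 2, where 13.2% of all features did in the comparison of all 7 arrays. Of the 9, ATG22 went the other way and was higher on arrays with a letter, by 0.40. The 54 other pathway genes showed a median of 0.34 to 0.40 on arrays with a letter and of 0.47 to 0.63 on those without. Both ckb12 arrays carry a letter, so the unlabelled arrays enter only the comparison with all 7 WT arrays and not that within sets A and B.

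**Figure D5:**
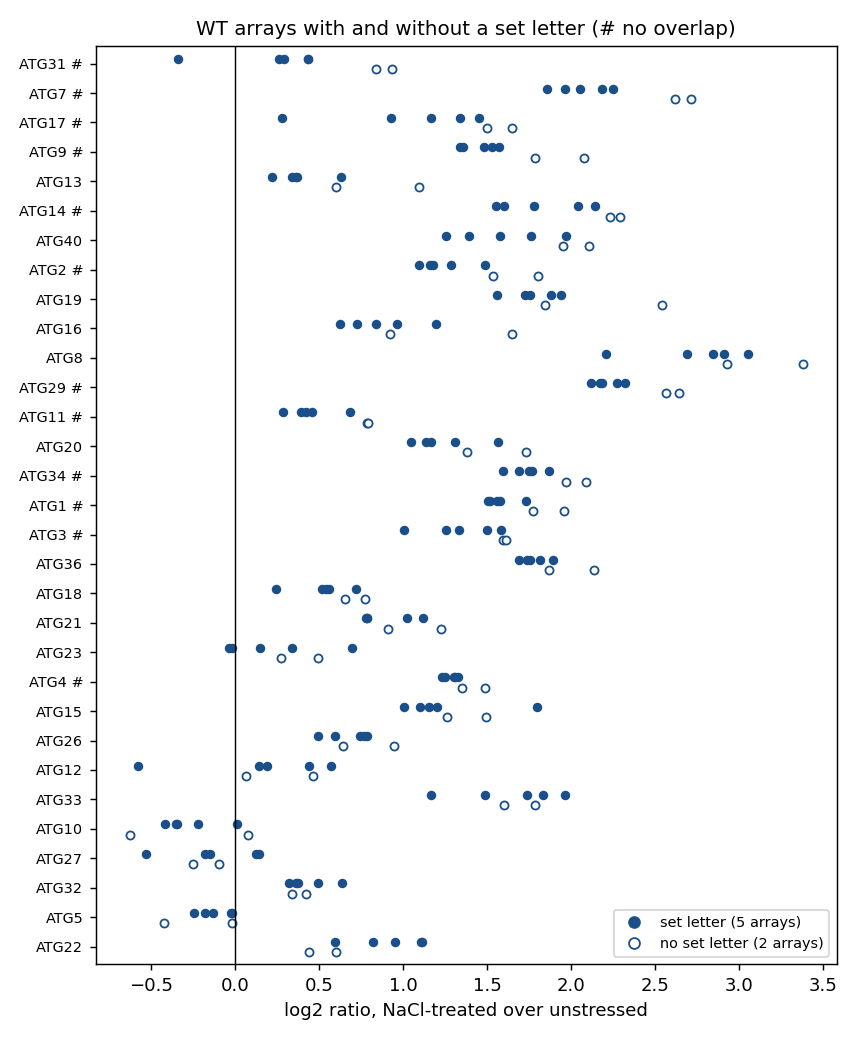
Log2 ratio of NaCl-treated over unstressed signal (x axis) on the 5 WT arrays with a set letter (filled) and the 2 without (open) for 31 autophagy genes, ordered by the difference of the group means. The mark # names the 12 genes whose filled points all lie below both open points.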

How the data were processed

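RNA of salt-treated and unstressed cultures was converted to cDNA and hybridised together to tiled NimbleGen arrays by the authors, who normalized the signals. They deposited log2 ratios, 1 value per feature and array, with replicates kept apart. The table states neither its log base, which was taken from the study's methods, nor its direction, which was read from channels and methods as treated over unstressed. Labels name 1 dye for the treated channel throughout, although the methods speak of varied dye orientation for some samples. How probes were combined into features and which genome build the design used are not given in the sources used here, so no coordinates are printed. No intensities were used, so precision could be judged only from the number of arrays.

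Symbols and adjacent genes came from a RefSeq R64 table (6023 of 6942 feature IDs matched). Fits used limma 3.58.1 in R 4.3.3 (lmFit, eBayes) without further normalization, over features complete on the arrays needed, with Benjamini-Hochberg adjustment over all of them and a threshold of 0.05. They were also run on simulated data with independent noise between arrays. The outcome is not given here, so what the fit within sets could detect is not shown. ckb12 and WT arrays were paired by set letter, as the study's methods pair mutants with WT. Across features, the difference of WT replicates 8 and 9 correlated at -0.043 with that of ckb12 replicates 1 and 2, and deviations from the strain means over all arrays at -0.059 in set A and 0.0014 in set B, so the pairing rests on the labels alone. Alternatives were other scalings, fits with missing values, ORF-style features only, robust eBayes, a Storey-type q value, a minimum change, a rule of WT mean ± 2 SD, other blocks and leaving out single arrays.

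The 32 genes, the role groups and the 54 other pathway genes were chosen with earlier results of these data known, and the lists were written from memory. Values on every array are given for ATG1 and ATG8, the 10 largest WT changes among calls with 1 direction on all WT arrays, the 2 largest WT SDs and the 4 largest paired differences of 1 direction in both sets, and for ATG9 in addition. Genes of the other lists are named at a called WT change of at least 1, at most 4 per list, with ATG38 and PHO8 in addition. A planned search of promoter sequences was not run.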

Additional observations from a re-analysis of the deposited data

Results flagged for a closer look

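ATG19, the gene for the Cvt receptor, had a ratio of 2.54 on WT replicate 2, against 1.56 to 1.94 on the other WT arrays, and was set apart by a test for a single far value in a group. Of 41 genes tested in this way it was the only one found in WT, and by chance about 1 in 20 groups is marked. PHO8, which encodes vacuolar alkaline phosphatase, was above 0 on both ckb12 arrays (0.28 and 0.24) and below 0 on all 7 WT arrays (-1.32 to -0.82). Its difference within sets A and B was 1.24 and did not pass (limma with Benjamini-Hochberg, adjusted p = 0.105). It did pass with ORF-style features only, with robust eBayes and against all 7 WT arrays (same test, adjusted p = 5.88e-04, 0.0184 and 0.0113). Each of these fits also called more of all features than the main fit within sets did.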

How the results depend on the processing

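Of 65 recomputed counts of called autophagy genes, 63 stayed within 1.5 times the values given. A minimum change of 1 reduced the WT count to 17. ORF-style features alone gave 2 calls between strains in place of 0, ATG10 and ATG39. With that setting far more of all features were called between strains as well. Leaving out single arrays gave 22 to 27 calls in ckb12, 26 to 30 in WT, and 0 between strains (on the 9-array fit) and for the set letters. Replicate numbers 1 and 2 occur in both strains without marking a pair, and the 4 arrays of sets A and B without the replicate block gave 0 calls, with 4 genes at an unadjusted p under 0.05. The set as a random block and the rule of 2 SD also gave 0, the last where 7.59% of all features passed. Keeping missing values could not be tried within sets, where each strain has 1 array. Of the differences given for single genes, ATG8 between strains turned to -0.18 with arrays scaled to an equal median absolute deviation. On the 9-array fit without a block, the ATG8 difference was 0.027. When single arrays were left out of that fit, it ran from -0.24 (without ckb12 replicate 2) to 0.29. The ckb12 mean of ATG27 ran from -0.085 to 0.0094, the last without ckb12 replicate 1. No WT mean of an autophagy gene changed its sign. The causes were not tested.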
